A study of Homo sapiens with 16 samples.

Results

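The regions described here carry a listed H3K27ac peak in cPt-sensitive A2780 cells, no listed H3K27ac peak in cPt-resistant A2780cis cells and no listed H3K9ac peak in A2780 cells. They were found by merging the autosomal H3K27ac peaks of A2780 and A2780cis wherever these shared at least 1 bp, and by keeping merged regions over 2000 bp that met these 3 conditions. The merge gave 16641 regions over 2000 bp, of which 1953, or 11.7%, were lost without H3K9ac. These made up 59.8% (95% Wilson interval 58.1 to 61.4) of the 3268 lost regions and 13.1% of the 14956 regions with an A2780 peak. The other 1315 lost regions overlapped an A2780 H3K9ac peak. The regions were selected on the peak calls and peak widths of 3 of the 8 lists, A2780 H3K27ac, A2780cis H3K27ac and A2780 H3K9ac, so values in these 3 lists are given as a description and only the other 5 lists serve for comparison. Of these 5, A2780cis H3K9ac comes from the line that the rule required to lack a listed H3K27ac peak.

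Acetylation of histone H3 at lysine 27 marks active enhancers and promoters, and acetylation at lysine 9 is found at the same kinds of elements, most strongly around transcription start sites. Acetylated elements far from start sites are often used by 1 cell type and not by another. MBD3 is a subunit of NuRD, a complex that carries histone deacetylases and removes such marks.

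The study comprised 16 samples from established lines of human epithelial ovarian cancer, namely 8 ChIP-seq libraries and their 8 inputs, and each condition and antibody had 1 library, so that no difference has a replicate check. A2780, an endometrioid line, was profiled without treatment. A2780cis is the resistant line of the pair and is labeled as treated with cisplatin. Both lines were profiled with an antibody against H3K27ac and with another against H3K9ac. Profiles of H3K27ac alone came from untreated CAOV4 cells, a high-grade serous line, and from CAOV4cis cells, its derivative after exposure to cPt in steps of rising dose. Profiles of H3K27ac also came from A2780 cells in which MBD3 was knocked down for 1 week by the shRNA shMBD3.26 or shMBD3.232. These cells were transduced, selected, and sorted for GFP after induction of the shRNA with doxycycline. Cells with a control shRNA were not analysed here, so both knockdowns are set against untransduced A2780 cells. All libraries were made from mononucleosomes with a spike-in of 5% *D. melanogaster* nucleosomes.

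The sequences listed for both shRNAs are shown because their lists were the fullest of the 5 at these regions. Both lists also differed from each other along the chromosomes. Of the 5, only these are H3K27ac lists of A2780 cells, and the rule asked for an A2780 H3K27ac peak. The source does not state the strand or the orientation, so the strings are printed as listed, no seed is marked, and it is not known here whether each is the strand loaded as the guide.
shMBD3.26: aacaaggtcaagagcgacccgc
shMBD3.232: ttgctcatcagcatcttgcccg

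The 8 lists held between 15058 and 27932 autosomal peaks and covered between 53.6 and 96.7 Mb. A2780 H3K27ac was the longest list, and shMBD3.232 with 18936 peaks and A2780cis with 20245 were the shortest for this mark. The lists give the position of a peak and no height, and the depth behind a peak is unknown. A region without a listed peak may thus still carry signal below the threshold of the authors. Chromosomes 20, 21 and 22 hold no listed peak, so the regions lie on 19 autosomes.

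Lost regions without H3K9ac were mostly narrow. Their widths ran from 2200 to 18800 bp with a median of 3000 bp and an upper quartile of 4000 bp, and together they spanned 7.20 Mb. Lost regions with H3K9ac had a median width of 4600 bp. It was 3600 bp for common regions without H3K9ac in A2780 and 3200 bp for A2780cis-only regions without H3K9ac in A2780cis. Of the 1953 regions, 1044 were at most 3 kb wide, 625 were over 3 to 5 kb, 252 were over 5 to 10 kb and 32 were over 10 kb. Among all lost regions, those without H3K9ac made up 74.6% (72.3 to 76.8) of the narrowest class and 10.5% (7.53 to 14.4) of the class over 10 kb. A wide region has more room to meet an H3K9ac peak, so this order describes the rule and is no finding about H3K9ac.

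The knockdown lists were the fullest at these regions. With shMBD3.26, 937 regions or 48.0% (45.8 to 50.2) had a peak, against a background of 77.9% of all 16641 merged regions. With shMBD3.232, 832 regions or 42.6% (40.4 to 44.8) had one, against a background of 74.7%. CAOV4 had a peak in 320 regions or 16.4% (14.8 to 18.1), with a background of 52.1%, and CAOV4cis in 351 or 18.0% (16.3 to 19.7), with a background of 52.7%. H3K9ac of A2780cis cells was listed in 80 regions or 4.10% (3.30 to 5.07), where the background was 58.3%. In all 5 lists the share thus lay below that of merged regions as a whole.

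**Figure D1:**
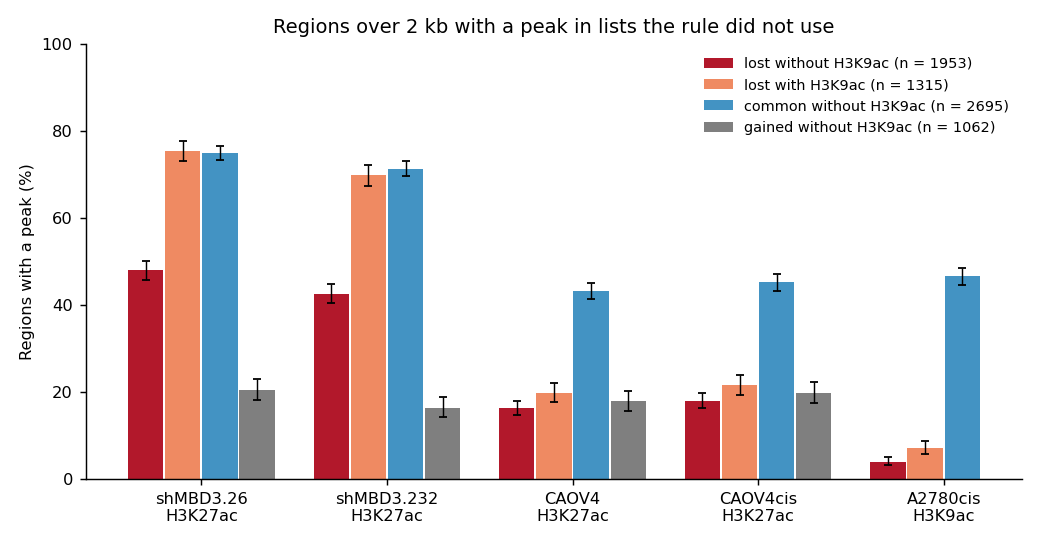
Percent of regions over 2 kb with a peak in each of the 5 lists that did not choose the lost regions without H3K9ac, for 4 classes of regions. Bars give the share and whiskers its 95% Wilson interval, which covers counting error only. Lost regions without H3K9ac sit at 48.0% and 42.6% in the knockdown lists, between common regions and A2780cis-only regions, and at 16.4% and 18.0% in the CAOV4 lists, next to A2780cis-only regions. A2780cis H3K9ac is not drawn for A2780cis-only regions because that list chose them.

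Common regions without H3K9ac are the closest class that kept its A2780cis peak, and all 5 lists were fuller there. They were classed by A2780 H3K9ac only, and 1257 of them (46.6%) had an A2780cis H3K9ac peak. Of these 2695 regions, 74.9% had a peak with shMBD3.26, and the difference of lost minus common regions was -27.0 percentage points (95% Newcombe interval -29.7 to -24.2). For shMBD3.232 this difference was -28.8 points (-31.5 to -25.9). For CAOV4 it was -26.8 points (-29.3 to -24.3), and for CAOV4cis it was -27.3 points (-29.8 to -24.7). These differences varied with width. Over 5 kb they were smaller in size in both knockdown lists and larger in the CAOV4 lists. For regions over 5 kb, the shMBD3.26 difference was -4.94 points (-11.1 to 0.823), with an interval that includes 0, and the shMBD3.232 difference was -19.3 points (-25.9 to -12.8). For CAOV4 it was -29.6 points (-34.9 to -23.7) and for CAOV4cis -34.9 points (-40.0 to -29.1). Over 10 kb, with 32 lost and 104 common regions, the shMBD3.26 share was higher in the lost regions by 21.2 points (8.49 to 30.0). For A2780cis H3K9ac, the difference over all widths was -42.6 points (-44.6 to -40.4). For regions over 5 kb, it was -54.9 points (-58.6 to -50.6). Both classes were set by H3K27ac of the same line, so the part of that choice in this difference cannot be told apart.

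A2780cis-only regions without H3K9ac in A2780cis are the mirror class, with 1062 regions. Here the knockdown lists and the CAOV4 lists parted. A peak with shMBD3.26 was 27.4 points (24.0 to 30.6) more frequent in the lost regions, and a peak with shMBD3.232 was 26.1 points (22.9 to 29.2) more frequent. For CAOV4 the difference was -1.60 points (-4.49 to 1.18) and for CAOV4cis -1.90 points (-4.89 to 0.995), and both intervals include 0. The knockdown cells are A2780 cells and the rule asked for an A2780 peak, so the cell line itself and the knockdown cannot be told apart in the first pair of values.

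Lost regions with H3K9ac differ from those without it in the A2780 H3K9ac peak that the rule used. The difference of regions without minus regions with H3K9ac was -27.5 points (-30.6 to -24.2) for shMBD3.26 and -27.3 points (-30.5 to -23.9) for shMBD3.232. Both classes differ in width, and wide regions met a knockdown peak more often. With the lost regions with H3K9ac weighted to the widths of those without, the differences were -15.3 points for shMBD3.26 and -15.2 points for shMBD3.232. The CAOV4 difference of -3.46 points (-6.20 to -0.782) became -5.87 points at matched widths, and the CAOV4cis difference of -3.63 points (-6.45 to -0.851) became -6.51 points. For A2780cis H3K9ac, the difference was -3.13 points (-4.85 to -1.52), or -4.65 points at matched widths.

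**Figure D2:**
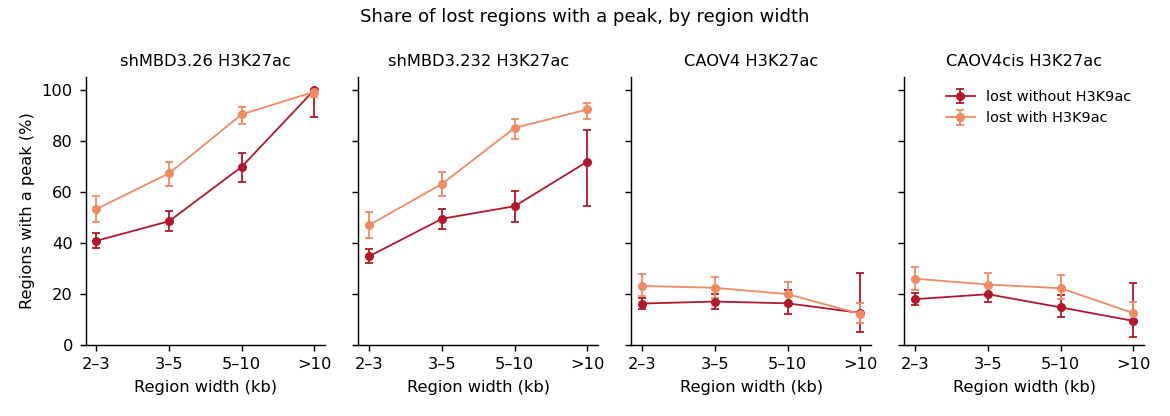
Percent of lost regions with a peak in each of 4 H3K27ac lists by region width in kb, with dark points for regions without H3K9ac and light points for those with it, and whiskers for the 95% Wilson interval. With shMBD3.26 the share of lost regions without H3K9ac goes from 40.8% at 2 to 3 kb to 100% over 10 kb, and with shMBD3.232 from 34.8% to 71.9%, while in CAOV4 it is 16.2% at 2 to 3 kb and in 4 of 32 regions over 10 kb.

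The share with a peak differed by width in the knockdown lists, as it did over all merged regions. With shMBD3.26, a peak was listed in 40.8% of the regions up to 3 kb, in 48.5% over 3 to 5 kb, in 69.8% over 5 to 10 kb and in 32 of 32 regions over 10 kb (100%, 89.3 to 100). Over all merged regions, the same classes gave 58.8%, 75.1%, 89.4% and 91.9%. With shMBD3.232, lost regions without H3K9ac gave 34.8%, 49.4%, 54.4% and 71.9%, against 53.0%, 72.9%, 86.6% and 89.7% over all merged regions. In CAOV4 cells, the shares were 16.2%, 17.0% and 16.3% up to 10 kb, with 4 of 32 regions over 10 kb, and the intervals of all 4 classes overlapped. Over all merged regions, CAOV4 shares were 32.8%, 49.1%, 64.4% and 65.3%. In CAOV4cis cells, lost regions without H3K9ac gave 17.9%, 19.8%, 14.7% and 9.38%, against 33.85%, 50.4%, 64.7% and 64.4% over all merged regions. Within each width class up to 10 kb, both knockdown shares were lower than in lost regions with H3K9ac, with differences from -30.7 to -12.3 points, and all 6 intervals excluded 0. Over 10 kb, the interval of the shMBD3.26 difference included 0 (0.733 points, -10.0 to 2.63), and that of shMBD3.232 did not (-20.4 points, -37.9 to -7.32).

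At the width limit of the rule, 306 lost regions without H3K9ac were exactly 2000 bp wide and fell just outside, and 248 were 2200 bp wide and fell just inside. The outside group had a peak in 28.1% with shMBD3.26, 27.1% with shMBD3.232 and 14.7% in CAOV4. The inside group had one in 35.9%, 29.4% and 19.0%. At the H3K9ac limit, 143 of the 1953 regions had an A2780 H3K9ac peak at most 1 kb away, and 175 lost regions fell outside with at most 400 bp under such a peak. Those inside had an shMBD3.26 peak in 47.6% and those outside in 57.7%, with median widths of 2800 and 3400 bp. For shMBD3.232, the shares were 47.6% and 54.9%. The other lists went the other way, with 18.2% and 16.6% in CAOV4, 21.7% and 17.7% in CAOV4cis, and 9.79% and 3.43% for A2780cis H3K9ac.

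The knockdown lists often disagreed on a given region. Both had a peak in 596 of the 1953 regions (30.5%, background 69.5%), only shMBD3.26 in 341 (17.5%, background 8.42%), only shMBD3.232 in 236 (12.1%, background 5.17%) and neither in 780 (39.9%, background 16.9%), so that 1173 regions (60.1%, background 83.1%) had at least 1. Where shMBD3.26 had a peak, shMBD3.232 had one in 63.6% (60.5 to 66.6), compared with 82.7% (81.0 to 84.3) in common regions without H3K9ac and 81.5% (78.9 to 83.8) in lost regions with H3K9ac. Where shMBD3.232 had a peak, shMBD3.26 had one in 71.6% (68.5 to 74.6), compared with 86.8% and 87.9% in the same classes. These shares depend on how often each list has a peak at all, and were not corrected for it. Over whole classes, shMBD3.232 had one in 42.6% of these regions, 71.35% of common regions without H3K9ac and 69.9% of lost regions with H3K9ac. For shMBD3.26, the same classes gave 48.0%, 74.95% and 75.4%. The shMBD3.26 list was the longer, with 23270 peaks, and with equal numbers of the widest peaks the shares with a peak were 44.8% and 44.3%. With 1 library for each shRNA, a difference between the guides and a difference between libraries cannot be told apart.

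The CAOV4 lists also disagreed on many regions. Both CAOV4 lists had a peak in 207 regions (10.6%, background 43.7%), only CAOV4 in 113 (5.79%, background 8.39%), only CAOV4cis in 144 (7.37%, background 9%) and neither in 1489 (76.2%, background 38.9%), which left 464 regions (23.8%, background 61.1%) with a peak in either. CAOV4cis kept 64.7% (59.3 to 69.7) of the regions with a CAOV4 peak, against 76.6% (74.1 to 79.0) in common regions without H3K9ac and 70.5% (64.7 to 75.7) in lost regions with H3K9ac. Over all regions of these classes, CAOV4cis had a peak in 18.0%, 45.2% and 21.6%, and the kept shares were not corrected for this. The regions that A2780cis lacked were thus listed about as often in CAOV4cis as in CAOV4, at 18.0% and 16.4%, with intervals that overlap.

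In these regions, the share with a CAOV4 peak was close with and without a knockdown peak. Either CAOV4 list had a peak in 24.8% (22.4 to 27.4) of the 1173 regions with a knockdown peak and in 22.2% (19.4 to 25.2) of the 780 without one. In common regions without H3K9ac, these shares were 59.8% and 31.0%, and over all merged regions 68.6% and 24.6%. Of the 4 combinations of a knockdown peak and a CAOV4 peak, the most frequent was a knockdown peak alone, since 882 regions (45.2%, background 26.1%) had a peak in at least 1 knockdown list and in no CAOV4 list. Peaks in both knockdown lists and no CAOV4 list were found in 447 regions (22.9%, background 17.4%), with a median width of 3600 bp. Another 291 regions (14.9%, background 57%) had a peak in at least 1 list of each pair. All 4 of these H3K27ac lists had a peak in 73 regions (3.74%, background 39.6%).

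In 590 regions, or 30.2% (28.2 to 32.3, background 9.58%), none of the 5 other lists had a peak, so that A2780 H3K27ac was the single list with a peak there. Their median width was 2800 bp. None of these 5 lists had a peak in 11.4% (9.80 to 13.2) of lost regions with H3K9ac. For common regions without H3K9ac, it was 7.75% (6.80 to 8.83). By their class, the former also have an A2780 H3K9ac peak and the latter an A2780cis H3K27ac peak. A further 173 regions (8.86%, background 4.16%) had a peak in a CAOV4 list and in no knockdown list.

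Peaks of the other lists filled these regions only in part. In A2780 the listed peak spans the region by the rule, and shMBD3.26 peaks covered 33.2% of the bases and shMBD3.232 peaks 33.3%. CAOV4 covered 9.07%, CAOV4cis 9.74% and A2780cis H3K9ac 1.24%. In lost regions with H3K9ac, shMBD3.26 covered 69.9% and shMBD3.232 covered 68.3% of the bases, while CAOV4 covered 6.86%. That class held 273 regions over 10 kb, against 32 in the class without H3K9ac, and the base shares were not matched for width. Where a peak was present, it covered a median of 58.3% of the region with shMBD3.26 and of 73.7% with shMBD3.232. At least 50% of the region lay under a peak in 554 regions with shMBD3.26 and in 596 with shMBD3.232, although shMBD3.26 met more regions. Peak widths differed between both lists in general, with a median of 2000 bp in the shMBD3.26 list and of 2600 bp in the shMBD3.232 list. At the regions, shMBD3.26 peaks had a median width of 0.765 times that of the A2780 region they met, and 61.6% were narrower than it. For shMBD3.232, the median ratio was 1.08 and 45.4% were narrower.

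**Figure D3:**
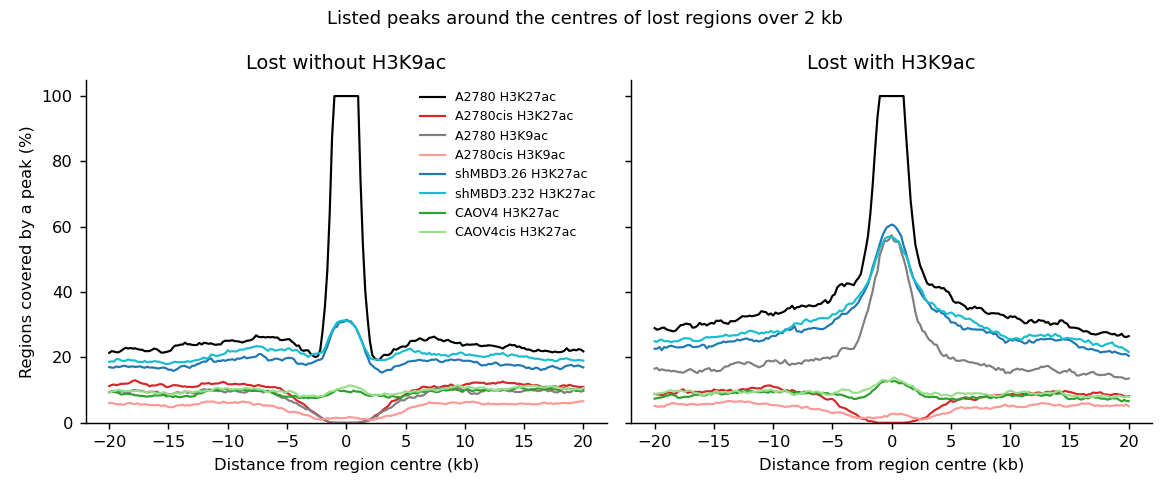
Percent of lost regions covered by a listed peak against the distance from the region centre in kb, every 0.2 kb out to 20 kb on both sides, for all 8 lists, without H3K9ac on the left and with H3K9ac on the right. At the centres of regions without H3K9ac, shMBD3.26 covers 31.5% and shMBD3.232 31.2%, while CAOV4 covers 9.58%, close to its 10.2% at 10 kb. A2780 H3K27ac at 100%, A2780cis H3K27ac at 0% and, on the left, A2780 H3K9ac at 0% are set by the rule.

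The profile around the region centres set these values against the surrounding DNA. With shMBD3.26, the covered share was 31.5% at the centre, 19.1% at 10 kb and 17.0% at 20 kb. With shMBD3.232, it was 31.2%, 21.5% and 18.8%. CAOV4 covered 9.58% at the centre, 10.2% at 10 kb and 9.81% at 20 kb, and CAOV4cis covered 11.0%, 10.5% and 9.93%. Both CAOV4 averages hold regions with opposite profiles when split by the distance from A2780cis H3K27ac peaks, a list that the rule used. At the centres of lost regions with H3K9ac, which were wider, CAOV4 covered 12.6% and shMBD3.26 covered 60.7%. These centre values were not matched for width. Beyond the regions, A2780 H3K27ac peaks covered 24.5% at 10 kb and A2780cis H3K27ac peaks covered 11.7%. Peaks within a list lie at least 1000 bp apart, so the A2780 list holds no further peak directly beside a region, which is the dip on both sides of the A2780 curve.

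H3K9ac of A2780cis was the emptiest of the 5 lists. Its peaks at these regions had a median width of 1200 bp, and 86.3% were narrower than the region. Of the 80 regions, 52 also had a knockdown peak (2.66%, background 54.0%) and 28 did not (1.43%, background 4.38%). The widest, at chr14:71383001-71389400, was 6.4 kb wide with 1.2 kb under an A2780cis H3K9ac peak, and it had no peak in the knockdown and CAOV4 lists. The list covered 1.43% of the region centres, compared with 6.14% at 10 kb. Regions with an A2780cis H3K9ac peak thus had this mark listed, over a short stretch, in the line without a listed H3K27ac peak there. Of the 80, 46 lay at most 5 kb from an A2780cis H3K27ac peak, and at 29 the H3K9ac peak reached outside the region.

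Lost regions without H3K9ac stood both beside A2780cis peaks and far from any. The gap to the nearest A2780cis H3K27ac peak had a median of 14.6 kb, with quartiles of 4.2 and 96.8 kb. It was at most 5 kb for 547 regions (28.0%), over 100 kb for 484 (24.8%) and over 1 Mb for 91. The gap to the nearest A2780 H3K9ac peak was shorter, with a median of 9.0 kb, and was over 100 kb for 122 regions (6.25%). Stitching of A2780 H3K27ac peaks at 1 fixed distance, which lies between the alternatives of 5 and 25 kb, gave 13656 clusters, of which 1504 held at least 1 of these regions. In such clusters 1236 regions (63.3%) lay with an A2780 H3K9ac peak, 1022 (52.3%) lay with an A2780cis H3K27ac peak, and 336 (17.2%) stood alone. Stitched at 5 kb the clusters numbered 18652, and at 25 kb they numbered 9714. Up to 7 of the regions shared a cluster, and 745 (38.1%) had another within theirs.

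**Figure D4:**
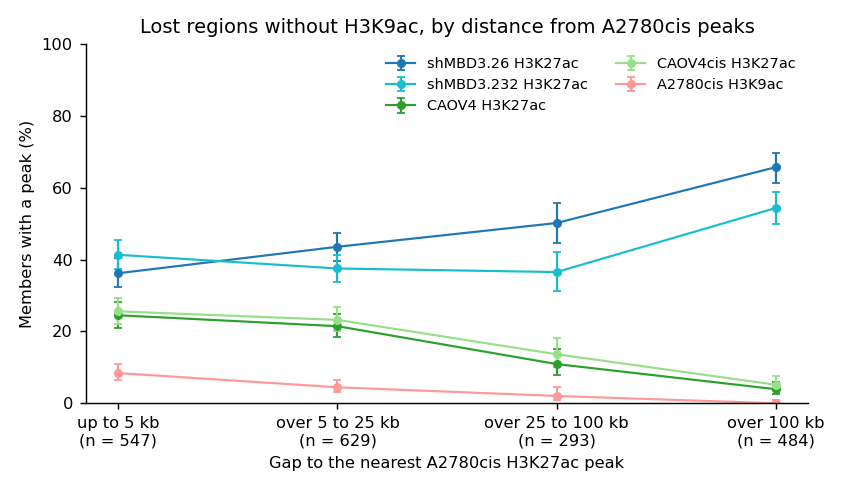
Percent of lost regions without H3K9ac with a peak in each of the 5 other lists, in 4 classes of the gap to the nearest A2780cis H3K27ac peak, with 95% Wilson intervals as whiskers. From the nearest to the farthest class, shMBD3.26 goes from 36.2% to 65.7%, while CAOV4 goes from 24.5% to 3.93%. A2780cis H3K9ac, from the line whose H3K27ac peaks set the classes, goes from 8.41% to 0%.

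The distance from A2780cis peaks split the lists in opposite ways. With shMBD3.26, the share with a peak was 36.2% (32.3 to 40.3) for gaps up to 5 kb, 43.6% over 5 to 25 kb, 50.2% over 25 to 100 kb and 65.7% (61.4 to 69.8) over 100 kb. With shMBD3.232, it was 41.3%, 37.5%, 36.5% and 54.3% (49.9 to 58.7), so that only the farthest class stood apart. In CAOV4, the shares were 24.5% (21.1 to 28.3), 21.5%, 10.9% and 3.93% (2.53 to 6.05). In CAOV4cis, they were 25.6%, 23.2%, 13.7% and 5.17%. H3K9ac of A2780cis was listed in 8.41%, 4.45%, 2.05% and 0% (0 of 484, upper bound 0.787%). The distance classes are set by H3K27ac of the same line, so the part of this choice in its H3K9ac shares cannot be told apart. The median width was 2800 bp in the nearest class, 3000 bp in the next pair and 3600 bp in the farthest, and its part in these differences was not tested. No shares by distance were computed for other classes of regions, so whether their order is particular to this part is not known. Within this part, regions far from any A2780cis peak had the highest share in the knockdown lists and the lowest in the CAOV4 lists. At the centres of these far regions, shMBD3.26 covered 51.7% and shMBD3.232 46.9%, against 20.9% and 23.8% at 10 kb, while CAOV4 covered 2.89% against 1.03% and CAOV4cis 2.69% against 0.826%. Around regions at most 5 kb from an A2780cis peak, the centres were emptier than the DNA at 10 kb in all 4 lists, with 17.9% against 25.8% for shMBD3.26, 24.7% against 28.5% for shMBD3.232, 14.1% against 20.2% for CAOV4 and 16.5% against 20.8% for CAOV4cis. These near regions were picked for an A2780cis H3K27ac peak close by, and that list covered 0% of their centres by the rule and 27.8% at 10 kb. The part of this choice in the profiles of the other lists was not tested.

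The company in the stitched cluster gave a like split, and here too no other class of regions was compared. Of the 1022 regions in a cluster with an A2780cis H3K27ac peak, 56.4% (53.3 to 59.4) had a peak in a knockdown list and 32.6% (29.8 to 35.5) in a CAOV4 list. Of the 283 regions in a cluster with A2780 H3K9ac and without an A2780cis H3K27ac peak, 73.1% (67.7 to 78.0) had a knockdown peak and 7.77% (5.19 to 11.5) a CAOV4 peak. Of the 312 in a cluster with neither, 61.9% had a knockdown peak and 10.9% a CAOV4 peak. Of the 336 that stood alone, 58.6% and 22.3% had one.

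Between neighboring A2780cis H3K27ac peaks, 1949 of the lost regions without H3K9ac lay in 1282 stretches of DNA. Of these stretches, 56 had at least 5 of the regions and held 456 of them. There, shMBD3.26 had a peak in 302 regions (66.2%) and shMBD3.232 in 261 (57.2%), while CAOV4 had one in 12 (2.63%) and CAOV4cis in 16 (3.51%). Such shares were not computed for other classes of regions in the stretches. Compared by covered length, the knockdown lists ranged from nearly empty to fuller than A2780. This length counts every peak of a list in the stretch, within and outside these regions. The ratio of shMBD3.26 to A2780 had a median of 0.907 over the 56 stretches and ran from 0.0185 to 2.38, against 0.792 over the autosomes as a whole. For shMBD3.232, the median was 0.966 and the range 0 to 2.38, against 0.816. In 21 stretches both knockdown lists covered more than A2780, and in 11 both covered less than 0.25 of it.

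The stretch at chr2:48758801-50762200 was one of the fuller kind, with 14 of the regions spanning 63.8 kb and 13 lost regions with H3K9ac. Over the whole stretch, A2780 H3K27ac peaks covered 359 kb and A2780 H3K9ac peaks 130.8 kb, so most of the H3K27ac length lay outside the 14 regions. There, shMBD3.26 peaks covered 443.6 kb and shMBD3.232 peaks 478.8 kb, while neither CAOV4 list had a peak. At chr6:91298001-96023800, all 11 regions had a peak in both knockdown lists, and A2780, shMBD3.26 and shMBD3.232 covered 63.6, 93.8 and 127.8 kb. At chr4:111121801-113150000, all 9 regions had a peak in both, with 55.4, 127.8 and 119.4 kb. A2780cis H3K27ac covered 0 kb in each by construction.

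Other stretches were poor in shMBD3.232 peaks at the regions, and many of them were poor in shMBD3.26 peaks too. In 13 stretches with 110 of the regions, no region had a peak with shMBD3.232, and 34 of them had one with shMBD3.26. In 2 of these stretches, with 11 regions, shMBD3.26 had no peak in any of them either. Peaks outside the regions could differ from this. Over all of chr6:122173001-122353400, which is among the 13, shMBD3.26 covered 60.8 kb and shMBD3.232 43.2 kb. Chosen after their values were seen, 3 stretches had at least 5 regions with an shMBD3.26 peak and none with an shMBD3.232 peak, and no stretch had the reverse. At chr4:26865601-36130000, A2780 covered 115.8 kb, shMBD3.26 23.8 kb and shMBD3.232 0.6 kb. At chr9:73217601-74382800, the lists covered 73.4, 9.2 and 0.2 kb. At chr9:80986401-81436200, they covered 124.2, 61.6 and 1.8 kb. The longest of the stretches named here, chr13:61048201-73299200, ran over 12.25 Mb with 16 of the regions and had 71.4 kb in A2780, 86.6 kb with shMBD3.26 and 17.8 kb with shMBD3.232.

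**Figure D5:**
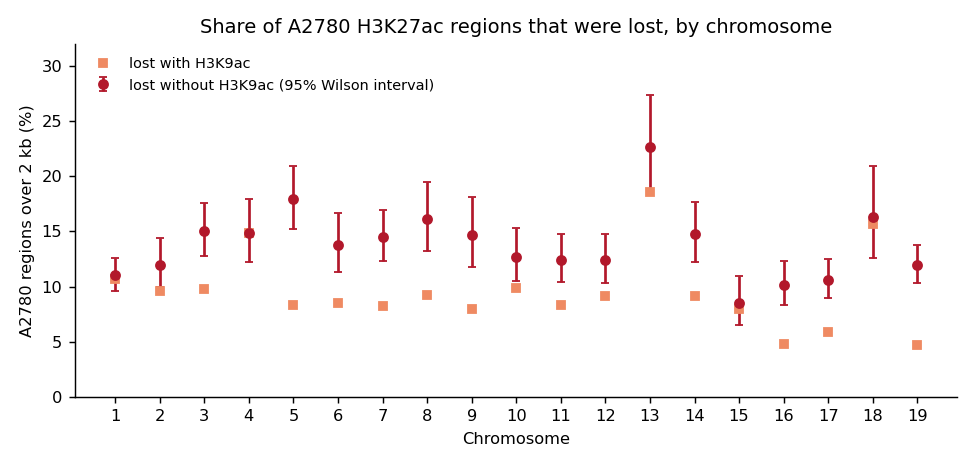
Percent of A2780 H3K27ac regions over 2 kb that were lost, for each of the 19 autosomes with peaks. Round points give lost regions without H3K9ac with 95% Wilson intervals, and squares give those with H3K9ac. Chromosome 13 is highest for both, with 22.6% lost without H3K9ac, and the other chromosomes lie between 8.48% and 17.9%.

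Among chromosomes, chromosome 13 had the highest share of A2780 regions that were lost without H3K9ac, with 77 of 340 or 22.6% (18.5 to 27.4). The other 18 chromosomes ranged from 8.48% on chromosome 15 to 17.9% on chromosome 5. Chromosome 13 also stood apart in the lists as a whole. It held 657 A2780 and 306 A2780cis H3K27ac peaks, a ratio of 0.466, whereas the ratio was 0.666 to 0.827 elsewhere. For H3K9ac, the peaks numbered 523 and 102, a ratio of 0.195 against 0.548 to 0.857 elsewhere. The H3K27ac ratio comes from the same lists that define a lost region, and the part of these chromosome-wide ratios in the share of lost regions was not tested. Without chromosome 13, the share of the regions with a peak was 47.4% with shMBD3.26 and 16.5% in CAOV4. Across chromosomes, shMBD3.26 had a peak in 23.1% of the regions on chromosome 15 and in 66.0% on chromosome 2, and shMBD3.232 had its lowest share on chromosome 9 and its highest, 58.4%, on chromosome 13.

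The 10 widest regions were all covered in full in A2780, and by the rule lacked A2780cis H3K27ac and A2780 H3K9ac. None had an A2780cis H3K9ac peak. All 10 had an shMBD3.26 peak, with 1.8 to 18.4 kb covered, and 6 had an shMBD3.232 peak, with 14 to 18.8 kb covered.

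The widest, chr5:50253801-50272600, measured 18.8 kb and was covered over 18.4 kb with shMBD3.26 and 18.8 kb with shMBD3.232. Neither CAOV4 list had a peak there, and it is also the widest of the 447 regions with that combination. Its nearest A2780cis H3K27ac peak lay 288 kb away. The eighth widest, chr5:50336401-50352400, lies close by on the same chromosome and was covered over all 16 kb by both knockdown lists and by no CAOV4 peak. Both are thus regions in which the knockdown cells matched untransduced A2780 over nearly every base.

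Both wide regions on chromosome 8 were alike in this. At chr8:74524801-74543000, all 18.2 kb were covered with both shRNAs. CAOV4cis touched it over 0.2 kb and CAOV4 did not. At chr8:75731801-75747000, shMBD3.26 covered 15.2 kb and shMBD3.232 15 kb of 15.2 kb. At chr6:66966601-66983400, shMBD3.26 covered 13 kb and shMBD3.232 16.4 kb of 16.8 kb, and the nearest A2780cis H3K27ac peak lay 2608 kb away.

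In 4 of the 10 widest, shMBD3.232 had no peak. At chr9:81279601-81297400, shMBD3.26 covered 13.6 of 17.8 kb. At chr11:104968001-104984200, it covered 13.8 of 16.2 kb, and CAOV4 covered 0.4 kb. At chr4:19023801-19039200, it covered 6.4 of 15.4 kb. At chr5:71058801-71075400, it covered 1.8 of 16.6 kb, and the nearest A2780cis H3K27ac peak lay 2.4 kb away. These 4 ranged from largely filled to nearly empty with shMBD3.26.

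The region at chr1:10733401-10750000 was the single one of the 10 that was filled in the other cell line. Of its 16.6 kb, CAOV4 covered 12.2 kb, CAOV4cis 14.8 kb, shMBD3.26 4.2 kb and shMBD3.232 14 kb. An A2780cis H3K27ac peak lay 2.4 kb away and an A2780 H3K9ac peak 1.6 kb away. It is the widest region with a peak in all 4 of these lists.

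Narrower examples stand for the remaining combinations. The widest region with no peak in the 5 other lists, chr12:89452201-89462200, measured 10 kb, abutted an A2780 H3K9ac peak and lay 3.8 kb from an A2780cis H3K27ac peak. The widest with both CAOV4 lists and no knockdown peak, chr17:79422401-79429000, measured 6.6 kb, with 1.4 kb covered in CAOV4 and 0.6 kb in CAOV4cis.

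The stitched cluster with the most bases in these regions was chr5:51616201-51674400, where 5 of 6 A2780 peaks were lost regions without H3K9ac, with 40.4 kb in all. A2780 peaks covered 41.4 kb of it, shMBD3.26 peaks 43.8 kb and shMBD3.232 peaks 53 kb. No peak of the other 5 lists touched the cluster. The next, chr11:104914201-104984200, held 3 of the regions with 33.4 kb. Its A2780 H3K27ac peaks covered 61.6 kb, H3K9ac peaks 11.8 kb, shMBD3.26 peaks 42.2 kb and shMBD3.232 peaks 0 kb. The third, chr7:18384601-18631600, was the longest with 247 kb and 20 A2780 peaks, of which 7 were such regions. Its A2780 H3K27ac peaks covered 181.6 kb, H3K9ac peaks 75.4 kb, shMBD3.26 peaks 142.8 kb and shMBD3.232 peaks 143.2 kb. A2780cis had no peak of either mark in any of the 3 clusters.

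By windows of 1 Mb, chr9:81000001-82000000 held the most bases in these regions, with 12 regions and 83.2 kb. Of the 12, shMBD3.26 had a peak in 7, and shMBD3.232 and both CAOV4 lists had a peak in 0. The next windows lay side by side, chr5:50000001-51000000 and chr5:51000001-52000000, with 9 regions each. There shMBD3.26 had a peak in 9 and 8 of the regions and shMBD3.232 in 9 and 9. Over the first of these, A2780 peaks covered 83.8 kb, shMBD3.26 peaks 142.6 kb and shMBD3.232 peaks 146 kb. Over the second, they covered 91.4, 126.2 and 132.2 kb. A2780cis H3K27ac covered 1.4 kb of the first and 0 kb of the second, and CAOV4 and CAOV4cis covered 0 kb of both. The chromosome 9 window had 124 kb covered in A2780, 61.6 kb with shMBD3.26 and 1.8 kb with shMBD3.232, the last outside the 12 regions.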

How the data were processed

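Mononucleosomes were immunoprecipitated and sequenced, and per the study's methods the authors used Bowtie2 for alignment, an R script for quantile normalization and MACS2 for peak calling, sample by sample. The submitters' processing notes name GRCh37 and hg19, and positions are given on that build. The deposited score is 0 throughout and went unused, so a value here is the presence, position or width of a peak. The other deposited columns hold peak starts and ends, nearly all on a grid of 200 bp, and how this grid arose is not given in the sources used here. The 6 rows off the standard chromosomes were left out.

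Peaks sharing at least 1 bp were merged, classed by list, and looked up in the other lists. Shares have 95% Wilson intervals and differences of shares have Newcombe intervals. Both cover counting error only, since there is 1 library per condition, and neighboring regions are not independent. No p-value was computed. The lookup was tested on simulated data. Regions and classes were chosen with earlier results of these data known. Those named are the 10 widest, the 3 stitched clusters and 3 windows of 1 Mb with the most bases in the regions, and the widest of each of several combinations of lists. Stretches were added after their values were seen. Python 3.11.15, numpy 2.4.6, pandas 2.3.3, SciPy 1.17.1 and matplotlib 3.10.9 were used. The shRNA sequences were copied from the tables of the study. Genes, sequence composition and inputs were not analysed here.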

Additional observations from a re-analysis of the deposited data

How the results depend on the processing

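Of 177 values recomputed under other settings, 126 moved by less than their interval or by less than 1.5 times, and 51 moved further. Among them, 0 differences whose interval excluded 0 changed sign. The class over 10 kb was not among these settings. There, the shMBD3.26 difference from common regions without H3K9ac was 21.15 points (8.49 to 30.0), against -27.0 over all widths. The CAOV4 difference from A2780cis-only regions, whose interval includes 0, went from -1.60 to 1.29 points over 5 kb. The number of lost regions without H3K9ac was 1953. With peaks within 5 kb counted as shared, it was 961, and the shares with a peak were 56.1% for shMBD3.26, 21.1% for CAOV4, 24.1% for CAOV4cis and 5.10% for A2780cis H3K9ac. For regions over 5 kb, it was 284, and the shares were 73.2% for shMBD3.26, 56.3% for shMBD3.232, 14.1% for CAOV4cis and 1.76% for A2780cis H3K9ac. With an overlap of 50% of the shorter interval, the shares were 43.9% for shMBD3.26 and 15.8% for CAOV4cis. With equal numbers of the widest peaks per mark, they were 44.8% for shMBD3.26, 14.8% for CAOV4 and 15.5% for CAOV4cis. With 1 region per stitched cluster, CAOV4 had 18.6% and CAOV4cis 20.1%. Of the 5 differences from lost regions with H3K9ac, the intervals of 3 excluded 0 for regions over 5 kb, as did those of 4 of 5 from common regions, and of the 4 differences from A2780cis-only regions, those of 4 excluded 0 with equal numbers of peaks, compared with 2. The share of the regions in clusters without an A2780cis peak, 47.7%, was 68.5% when stitched at 5 kb and 35.7% at 25 kb. The chromosome 13 share was 10.5% over 5 kb, next to 10.5% on chromosome 5. Leaving out chromosome 13 was chosen after seeing the data and moved none of the shares beyond their intervals. Regions over 5 kb are fewer by construction, and the cause of the other moves was not tested. No paired analysis was possible because each condition had 1 library, and for the same reason no replicate could be left out. The depth behind the peaks is unknown, so the lists cannot be matched for depth.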
